A study of Mus musculus with 6 samples.

Results

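Rev-erbα peaks at 8 genes of the core circadian clock were taken from chromatin immunoprecipitation sequencing (ChIP-seq) of mouse liver. A peak was counted for a gene when its centre fell in a window set around that gene in the mouse build mm9. The windows of Nr1d1, Nr1d2, Arntl, Clock, Npas2, Cry1, Per1 and Per2 span 1.36 Mb together and held 28 of the 11767 peaks of the ZT10 list. This list was called on pooled samples, according to its name. ZT10 is 10 h after lights on. A second deposited list, whose name calls its sites independent of the receptor's DNA-binding domain (DBD), held 3579 peaks, and 10 of them were among the 28. All of its peaks are also in the ZT10 list. No sample is labelled as having an altered DBD, so the name was not checked. Below, "listed" means in the DBD-independent list and "unlisted" means in the ZT10 list alone.

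The samples were livers of male C57BL/6 mice aged 12 weeks, 3 wild type and 3 HNF6 KO (a knockout of the liver transcription factor HNF6), all kept on normal chow under a normal light/dark schedule without further treatment and all precipitated with an antibody against Rev-erbα. How HNF6 was removed, and from which cells, is not given in the sources used here. Neither list holds a value for a single liver, so wild type and HNF6 KO were not compared at any of these genes, there is no spread between replicates, and the sequencing depth is unknown. Peak positions cannot show whether a tissue is liver, so the labelled tissue was not checked. No mm9 annotation was used here: the windows tie peaks to genes by position alone, and a peak in a window may belong to a neighbouring gene.

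As background, the clock of mammalian cells is a feedback loop. ARNTL (BMAL1), with CLOCK or its relative NPAS2 as partner, activates genes through E-boxes, among them the Per and Cry genes, whose products inhibit ARNTL and its partner, and the genes of the Rev-erb receptors. Rev-erbα (Nr1d1) and Rev-erbβ (Nr1d2) repress Arntl. They bind as monomers to AGGTCA behind an A/T-rich stretch (the RORE) or as dimers to a paired site (RevDR2). Rev-erbα can also be held at chromatin by other liver factors without contact of its own DBD with DNA. In liver its protein is abundant late in the light phase.

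The window of Arntl held a ZT10 peak that covered a reference point, and for this reason the promoter of Arntl is shown. The 3 listed peaks of this window carry deposited distances of 43814, 53297 and 54405 bp, and all 3 lead back to the same position on the plus strand, chr7:120350979 in mm9. A position shared in this way by at least 2 listed peaks is called a point, and it can be off by 1 bp. The peak at chr7:120350890-120351039, which is unlisted, spans this point from -89 to 60 bp. The RefSeq promoter table, which is in another build (GRCm38.p6), gives Arntl 2 starts on the plus strand, 46 bp apart. The stretch of the later start, chr7:113207261-113207560 in GRCm38.p6, plus strand, begins 250 bases before it. In the sequence, capitals mark matches to a relaxed RORE, which is TAGGTNA with an A 3 bases before its first T. It was chosen after the sequence had been seen.

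Arntl promoter: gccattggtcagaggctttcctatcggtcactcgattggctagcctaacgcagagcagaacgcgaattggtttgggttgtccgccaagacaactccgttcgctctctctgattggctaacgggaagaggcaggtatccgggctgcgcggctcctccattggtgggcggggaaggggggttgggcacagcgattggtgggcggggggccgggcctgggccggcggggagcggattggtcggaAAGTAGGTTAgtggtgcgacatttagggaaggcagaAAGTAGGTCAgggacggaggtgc

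The match that ends in GGTCA lies at 28 to 37 from the later start (position 1 is the first base of the gene). It was the sole match to the stricter RORE (TAGGTCA with an A 3 bases before its first T) among 11 RefSeq promoters of 7 of the 8 genes (Per2 had no entry). On either strand, 0.700% of all 32851 promoters of 300 bases held this motif. The match that ends in GGTTA begins 36 bases before it, and 2.28% of all promoters held a match to the relaxed RORE. If the point is the later start and spacing is alike in the builds, both matches lie inside the peak. If it is the earlier start, the GGTTA match lies inside (38 to 47) and the GGTCA match outside (74 to 83). Which start the deposited distances refer to, if either, is not known.

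The bare AGGTCA, which the stricter RORE and the paired site contain, occurred in 4 of the 11 promoters, each of a different gene, and in 16.3% of all promoters. The 4 sites are shown 5′ to 3′ on the strand of the gene with 10 bases on each side and AGGTCA, or its reverse complement TGACCT, in capitals. They are shown because the bases before AGGTCA set a RORE apart.

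Arntl: ggcagaaagtAGGTCAgggacggagg

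Nr1d2: ttggaagaagAGGTCAggaccgctcg

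Per1: gacacagcccTGACCTcagtgggggc

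Clock: ctttggcctcTGACCTgacagatgac

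Among the 4, the Arntl site alone has the T that makes TAGGTCA, which 2.61% of all promoters held. The paired site (GGTCA and AGGTCA with 2 free bases between) was in 0 of the 11 promoters and in 0.0213% of all. The E-box CACGTG, the site of ARNTL and its partners, was in the promoters of Cry1 and Per1 and in 7.15% of all. The D-box TTATGNAA, a site of PAR-bZIP factors such as DBP, was in 1 promoter of Per1 and in 3.38% of all. The Onecut cores ATTGAT (7.54% of all) and ATCGAT (0.925%), sites of the HNF6 family, were in 0 of the 11. All motifs were searched on both strands. A match is a description of letters, and no match says nothing about binding elsewhere in the windows.

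The ZT10 list carries no score, so the place of a peak in it was used as a rough stand-in for strength. This rests on the listed peaks alone, and on taking their deposited values, whose unit is not stated, as a measure of strength. Across all 3579 listed peaks, Spearman's rho of place with the first deposited value was -0.94 and with the second -0.91. These peaks come from the same pooled list. For unlisted peaks the relation could not be checked. The relation is not strict: the listed clock gene peaks at places 1281 and 1826 have first values of 21 and 24, and those at 3236 and 5415 have 10 and 14. The order proved to be coarse. The list breaks into 129 consecutive blocks, each defined as a run in which chromosome and start, read as text, rise. Sorting within a block is thus part of its definition. What shows the coarse order is that 11767 peaks form so few blocks. Places inside a long block were therefore taken to hold no order of strength. Short blocks at the head of the list, such as places 10 to 14, can also arise in a list ranked throughout. Whether places inside them hold an order is not known. Blocks held between 1 and 994 peaks, with a median of 12, and the last 12 blocks held 56.6% of all peaks. A place is given below with the places its block spans where that matters.

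Some clock gene peaks stood at the very head of the list, while others were spread down to place 10646. The median place of the 28 was 2897 (95% order-statistic interval 1281 to 6200), against 5884 for all ZT10 peaks, which lies inside the interval. With windows widened by 50 kb on each side the median was 4756. The first 92 blocks, with 1155 peaks or 9.82% of the list, held 7 of the 28 (25.0%, Wilson interval 12.7 to 43.4%). These 7 peaks lay in the windows of 4 genes: 2 at Nr1d1, 2 at Npas2, 2 at Cry1 and 1 at Arntl. Windows were chosen at clock genes with earlier results of these data known, so these shares describe the peaks and are not tested.

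**Figure D1:**
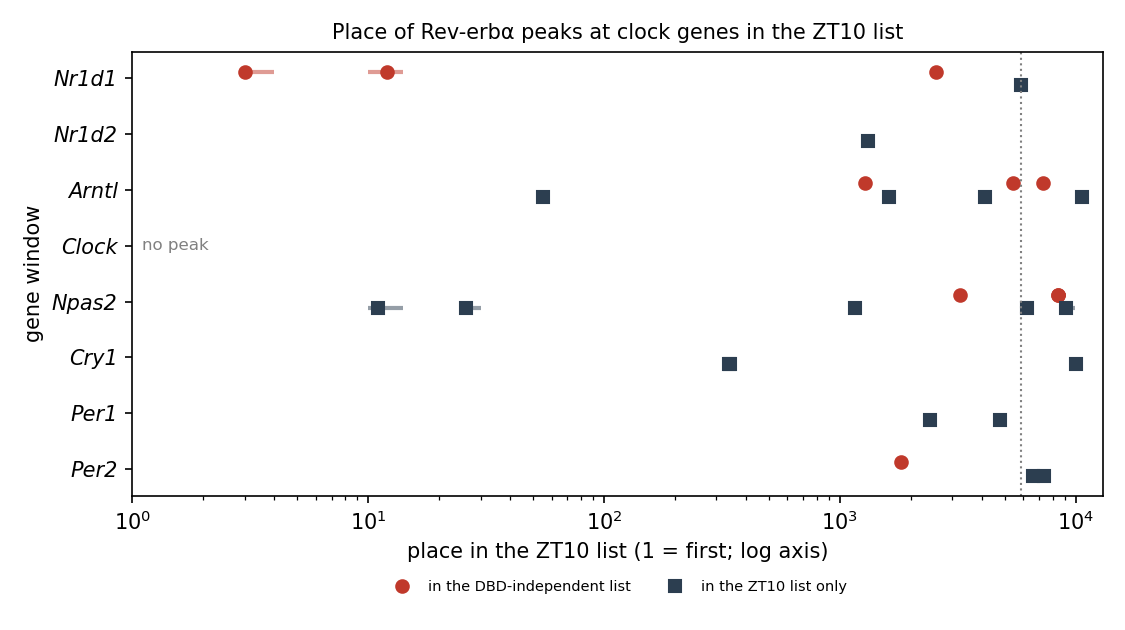
Each point is 1 peak, by gene window (rows) and place in the ZT10 list (log axis), circles for the DBD-independent list and squares for the ZT10 list alone. Horizontal bars span the places of the peak's block and the dotted line marks the median of all ZT10 peaks, 5884. Nr1d1 and Npas2 hold the earliest peaks (places 3, 11 and 12), Arntl follows at 55, and Clock has no peak.

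Peaks were also dense in the windows, at 2.06 per 100 kb (exact Poisson interval 1.37 to 2.98) against 0.461 per 100 kb over the 2552 Mb spanned on all chromosomes, a ratio of 4.46. The windows are centred on genes and the background is not, and it includes stretches to which reads cannot be mapped. Of the 28 peaks, 16 had another ZT10 peak within 10 kb (57.1%, 39.1 to 73.5%), against 31.0% of all ZT10 peaks. Peaks of 1 window are not independent of each other. Every interval here covers counting error only.

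The share of listed peaks was near that of the whole list. Of the 28 peaks 10 were listed (35.7%, 20.7 to 54.2%), against 30.4% of all ZT10 peaks. These 10 lay in the windows of 4 genes, with 3 each at Nr1d1, Arntl and Npas2 and 1 at Per2. The windows of Nr1d2, Cry1 and Per1 held 0 listed peaks among 1, 3 and 2. The peak first in the list was listed at Nr1d1 and Per2, that is at 2 of the 7 genes with peaks (28.6%, 8.22 to 64.1%). This interval takes in the 30.4% of all ZT10 peaks. That share is not matched to first peaks, which by construction stand earlier in the list. Among the 7 clock gene peaks in the first 92 blocks, 2 were listed, both at Nr1d1 (28.6%, 8.22 to 64.1%), where 49.3% of all ZT10 peaks were. The interval takes in the background share, so no difference was detectable with 7 peaks.

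Nr1d1, the gene of Rev-erbα itself, had the earliest peak of all 8 windows. The peak at chr11:98634293-98634442 stood at place 3 and is listed, with deposited values of 96 (the first) and 82 (the second) and a deposited distance of 2189 bp. The unit of these values is not stated. A further listed peak, chr11:98616343-98616492, stood at place 12 (block 10 to 14), with values of 83 and 56 at 13230 bp. These first values ranked 2 and 7 among the 3579 listed peaks. The third listed peak, chr11:98602130-98602279, stood at place 2558, with values of 14 and 10 at -983 bp. The unlisted peak, chr11:98627691-98627840, stood at 5862.

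The distances in the Nr1d1 window did not all refer to the same gene start. The peaks at places 12 and 2558 shared a point on the plus strand, chr11:98603187, whereas RefSeq has Nr1d1 on the minus strand. Its neighbour and overlapping gene in RefSeq's order is Thra, which codes for a thyroid hormone receptor. Measured to that plus-strand point, the peak at place 3 lay 31.2 kb away, so its own distance of 2189 bp refers to another position. That position is chr11:98636556 if the start is on the minus strand and chr11:98632178 if it is on the plus strand, and no other listed peak shares either. Without an mm9 annotation the peak at place 12 could not be assigned to Nr1d1 or to its neighbour.

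Nr1d2, the gene of Rev-erbβ, had 1 peak in 130 kb, chr14:19103525-19103674, unlisted, at place 1318 (block 1291 to 1371). Consecutive stretches of 130 kb along all chromosomes held at least 1 peak in 30.1% of cases. Here and below, such stretches are not centred on genes and include sequence to which reads cannot be mapped. The window of the paralogous Nr1d1 held 4 peaks in 100 kb, a number reached by 1.84% of stretches of that length. Those at places 12 and 2558 carry distances to a point that is not on the strand of Nr1d1.

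Arntl, whose product is the shared activator of the loop, had 7 peaks in 210 kb, a number reached by 1.11% of stretches of that length. They formed a group at the point and a distal group. The group at the point held the unlisted peak that covers it (place 55, block 53 to 56), with its centre at -15 bp. It also held the unlisted peak chr7:120350568-120350717 (place 1615), with its centre at -337 bp. By place alone, the peak at place 55 was the 21st unlisted peak of the whole list, with the same limit on order inside its block. The distal group lay 43.6 to 63.1 kb downstream of the point, with 3 listed and 2 unlisted peaks. No ZT10 peak lay in the 43.6 kb between the groups.

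In the distal group of Arntl the earliest peak, chr7:120404202-120404351, stood at place 1281 and carried values of 21 and 23. Its listed neighbours were at place 5415, with values of 14 and 16, and at place 7264, with values of 8 and 9. The unlisted peaks stood at 4110 and 10646. In all 3 listed Arntl peaks the second value was above the first. In the other 7 listed clock gene peaks it was equal or below. The second value was thus above the first at 3 of the 10 listed clock gene peaks (30.0%, 10.8 to 60.3%). Over the whole DBD-independent list it was above the first at 25.5% of peaks, which lies inside this interval. No difference from the whole list was therefore detectable with 10 peaks. The 3 Arntl peaks share a gene and small whole numbers, and their difference from the other 7 was not tested.

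Clock, which codes for the usual partner of ARNTL, had 0 peaks in 190 kb. The nearest ZT10 peaks lay 158 kb below and 592 kb above the window, so 940 kb around the gene held none. Of consecutive stretches of 190 kb along all chromosomes, 63.3% held no peak. As these stretches are not centred on genes, they cannot show how often a window at a gene is empty. The span of 940 kb was not compared with others. The list shows that no peak was called, which is not the same as no binding.

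Npas2, which codes for the relative of CLOCK that can replace it, had 8 peaks in 320 kb, a number reached by 2.04% of stretches of that length. The earliest, chr1:39189908-39190057, was unlisted and stood at place 11. It is in the same short block (10 to 14) as the peak at place 12 in the Nr1d1 window, so these were not ranked against each other. The next, chr1:39249630-39249779, was unlisted and stood at place 26 (block 26 to 30). By place alone they were the 4th and the 9th unlisted peaks of the whole list, but order inside their blocks is not known to follow strength. At 2 listed peaks the distances of -91159 and -6993 bp led to a shared plus-strand point, chr1:39251117, and RefSeq has Npas2 on the plus strand. From this point the peak at place 26 lay 1.41 kb upstream and the peak at place 11 lay 61.1 kb upstream.

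The remaining peaks of the Npas2 window came later in the list. The unlisted peak chr1:39159351-39159500 stood at 1157, and the listed peak 533 bp from it stood at 8418, with values of 6 and 5. The listed peak at -6993 bp stood at 3236, with values of 10 and 8. A listed peak at chr1:39424534-39424683 (place 8419, values of 5 and 5) lay 173 kb from the shared point. Its own distance was -88 bp, so it refers to another start. Next to Npas2 in RefSeq's order is Rpl31, a ribosomal protein gene, but the peak was not assigned. The unlisted peaks at places 6200 and 9117 lay 124 and 216 kb downstream of the point.

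**Figure D2:**
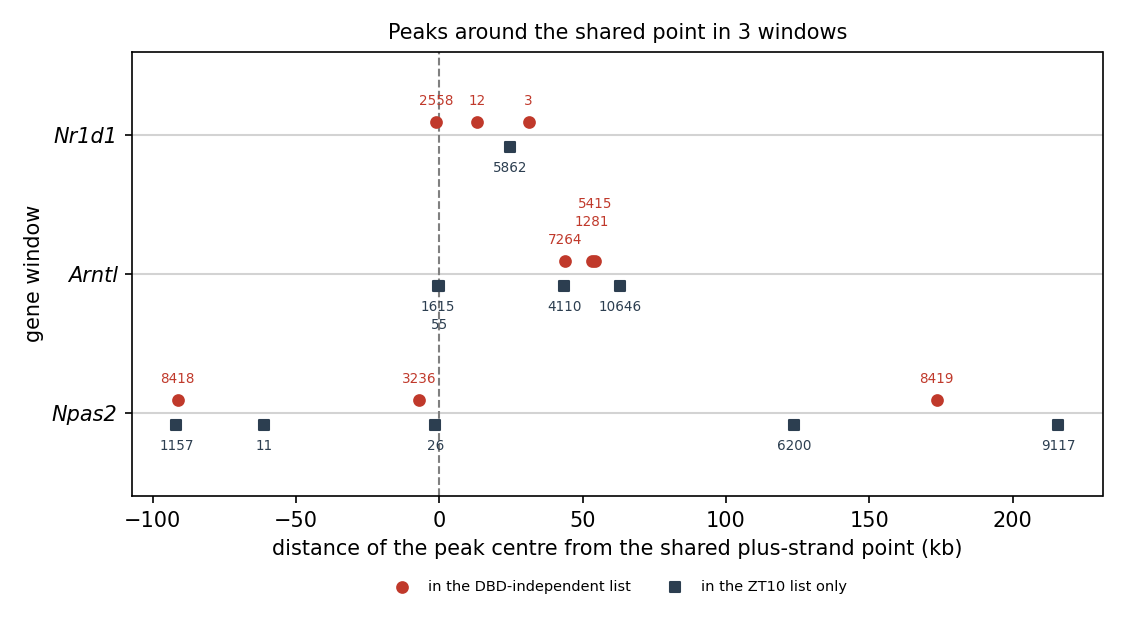
Peak centres by distance from the plus-strand point shared by listed peaks (kb, linear axis) in the windows of Nr1d1, Arntl and Npas2, circles above the line for listed and squares below it for unlisted peaks, with the place in the ZT10 list beside each. At Arntl the peak at place 55 sits on the point and the listed peaks lie 43.8 to 54.4 kb downstream, while at Npas2 the early unlisted peaks (11 and 26) lie upstream and at Nr1d1 the point is not on the strand of the gene.

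Neighbouring peaks could fall into different classes. The 28 peaks held 3 neighbouring pairs up to 1 kb apart. At Arntl the pair at the point, 322 bp apart, was unlisted throughout. In the distal Arntl pair, 237 bp apart, the peak at place 4110 was unlisted and the peak at 7264 listed. In the Npas2 pair, 533 bp apart, the peak at 1157 was unlisted and that at 8418 listed. Such mixed pairs made up 44.9% of the 437 neighbouring ZT10 pairs up to 1 kb apart, so 2 of 3 is no departure that these numbers could show.

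Among the inhibitors of the loop, Cry1 had 3 peaks in 150 kb, all unlisted. The peaks chr10:84624576-84624725 and chr10:84652761-84652910 stood at places 340 and 341. They lie 28.2 kb apart and belong to the same block (338 to 356), in which places follow coordinates, so they cannot be ranked. The third peak stood at 10053. Stretches of 150 kb held at least 3 peaks in 9.28% of cases.

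The Per genes, whose proteins join CRY in inhibiting ARNTL and its partner, had later peaks. Per1 had 2 unlisted peaks in 110 kb, chr11:68893703-68893852 at place 2416 and chr11:68924392-68924541 at 4802, and 12.8% of stretches of that length held as many. Per2 had 3 in 150 kb. Its earliest, chr1:93333190-93333339, is listed and stood at place 1826 (block 1817 to 1907), with values of 24 and 21 and a deposited distance of 22641 bp. The point of this distance is chr1:93355905 on the minus strand or chr1:93310623 on the plus strand, and it is not shared. The unlisted peaks of Per2 stood at 6628 and 7364, both past the median of the list.

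The 10 listed peaks covered nearly the whole range of the deposited values. Their first values lay between 5 and 96 (median 14), and those of the whole DBD-independent list between 1 and 103 (median 12). Their second values lay between 5 and 82, with a median of 13 against 11 for the whole list. Dividing the second value by the first gave a median of 0.865, with 0.675 as the lowest (Nr1d1, place 12) and 1.14 as the highest (Arntl). Over the whole list this quotient had a median of 0.889 and ran from 0.671 to 1.47. The peak at place 12, in the Nr1d1 window but not assigned to a gene, thus stood just above the lower end. Both ends lie just inside 1.5-fold, and the sources used here do not say whether a limit of that size set the list.

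**Figure D3:**
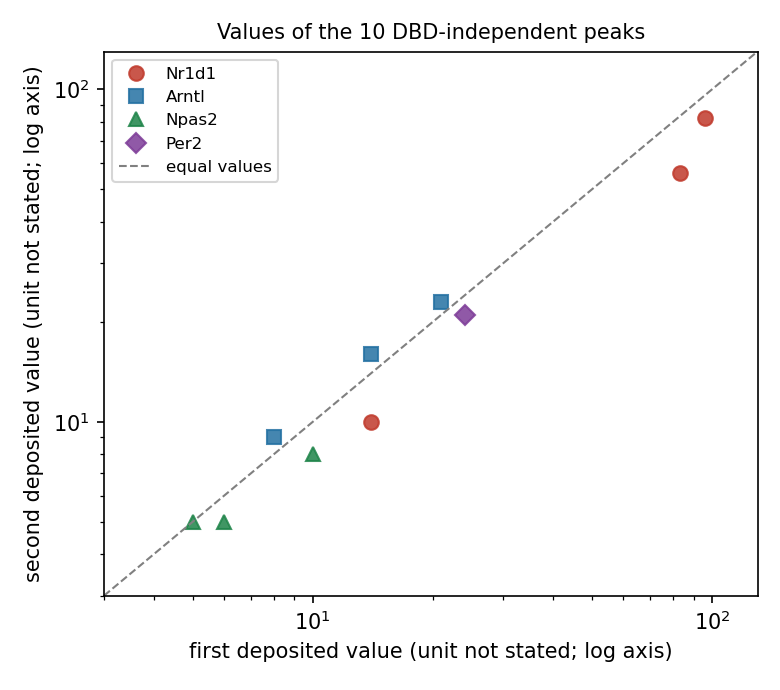
First against second deposited value (log axes, unit not stated) of the 10 listed clock gene peaks, by gene, with a dashed line where both are equal. The 3 peaks of the Arntl window lie above the line, and 1 of the Npas2 window with values of 5 and 5 lies on it. The peaks of the Nr1d1 window with first values of 83 and 96 stand apart at the upper right.

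The deposited distances of the listed peaks were set beside those of the whole DBD-independent list. Within 1 kb lay 2 of 10, in the windows of Nr1d1 (-983 bp) and Npas2 (-88 bp), against 30.0% over the whole DBD-independent list. Neither distance could be tied to the start of the clock gene. The -983 bp refers to a plus-strand point, whereas RefSeq has Nr1d1 on the minus strand. The -88 bp refers to a start other than the shared point of the Npas2 window, from which this peak lay 173 kb away. Beyond 10 kb lay 6 of 10 (60.0%), against 47.2%. Upstream lay 4 of 10 (40.0%), against 50.8%. With 10 peaks each of these shares has an interval that takes in its background (5.67 to 51.0%, 31.3 to 83.2% and 16.8 to 68.7%). The unlisted peaks nearest to a shared point, at -15 and -337 bp (Arntl) and -1413 bp (Npas2), carry no deposited distance.

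The windows have edges, and some peaks lay near them. Just inside, the last Npas2 peak (place 9117) was 2.93 kb from the edge. Just outside, an unlisted peak at place 10000 lay 4.65 kb beyond the Npas2 window and a listed peak at place 6210 lay 1504 bp beyond the Per2 window.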

How the data were processed

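Coordinates were deposited in mm9, and the authors used Bowtie and HOMER, per the submitters' processing notes. The sources used here give no versions, thresholds, pooled samples or rule behind the DBD-independent list. The authors deposited 2 whole numbers per listed peak without a label, used here as a score, and a signed distance in bp. All peaks are 150 bp wide. Depth is unknown.

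Members were peaks with a centre in the window. The members, lists and motifs were chosen with earlier results of these data known, and the blocks and the relaxed RORE were examined after seeing the data. Lists were matched at an overlap of at least 1 bp, which gave identical coordinates for all 3579 listed peaks. Printed coordinates are 1-based. Points were the centre minus (plus strand) or plus (minus strand) the distance. Shares carry 95% Wilson intervals. No test was made, and no value per liver was used. The planned list of other clock genes was not analysed, for want of an mm9 annotation. Named were all 8 genes, the first peak per window, each listed peak and the peak nearest to a start. Remaining peaks were added, as they were few. Promoters are RefSeq's (GRCm38.p6). Routines were tested on simulated data. Python 3.11.15, numpy 2.4.6, pandas 2.3.3, SciPy 1.17.1 and matplotlib 3.10.9 were used.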

Additional observations from a re-analysis of the deposited data

How the results depend on the processing

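Of 42 alternatives to 5 results, 39 stayed within the interval of the value reported, or within 1.5 times for the number of peaks, and 3 did not. The 3 follow from their construction. The median place was 340 when each gene was represented by its first peak. The share of peaks with a neighbour was 35.7% within 5 kb (19.6% of all ZT10 peaks) and 75.0% within 20 kb (46.2% of all). Windows widened by 50 kb held 39 peaks with a median place of 4756, and windows narrowed by 20 kb held 23 with a median of 3236. The wider windows moved the median over 1.5 times towards that of the whole list. The listed share was 27.0% as a mean over genes, and among the first 5883 peaks it was 36.8% against 40.7% of all. Leaving out each gene in turn gave a listed share between 29.2% (without Nr1d1, thus below the 30.4% of the whole list) and 40.0%, a median place between 2487 and 3673, and a density between 1.83 and 2.39 per 100 kb. Using the middle of each block as the place and the listed share within the first 92 blocks were chosen after seeing the data. A stricter threshold by score and leaving out a replicate were not run. No paired analysis was possible because no column belongs to a replicate.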
